A study of Rattus norvegicus with 20 samples.

Results

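The subunits of the NMDA receptor were followed in the hypothalamic arcuate nucleus of infant female rats. Their probes were found by gene name among probes that are not controls, under the current or an older symbol. All 7 genes of the family (Grin1, Grin2a, Grin2b, Grin2c, Grin2d, Grin3a and Grin3b) were on the array, on 9 of its 30367 probes with 1 spot each. All 9 probes passed the filter on dim probes, so that the 7 genes stood among the 17086 genes tested.

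The study asked how expression in the arcuate nucleus changes in a rat model of infantile spasms and after its treatment. The 20 animals were Sprague-Dawley females on postnatal day 15, 4 in each of 5 conditions. SNS rats were exposed to saline before birth, had no spasms and received saline. BNS rats were exposed to betamethasone before birth (0.4 mg/kg per dose to the mother on gestational day 15), had no spasms and received saline. BYS, BYA and BYP rats had the same prenatal exposure and then had spasms triggered by NMDA, given at the ages of 12, 13 and 15 days. BYS rats were treated with saline, BYA rats with ACTH and BYP rats with PMX53, an antagonist of the complement receptor C5ar1. By the labels, ACTH and PMX53 were given on postnatal days 13, 14 and 15. In the study's methods, treatment began on postnatal day 12. BNS is therefore the control for NMDA, and SNS the control for betamethasone. The model limits these groups, since no rat received NMDA without betamethasone. The labels name no litter for a rat, so that rats of a condition may be littermates.

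NMDA receptors are glutamate-gated channels of 4 subunits that pass calcium and open when glutamate and glycine (or D-serine) bind while the cell is depolarized. Every receptor needs GluN1, encoded by Grin1, which binds glycine. GluN2 subunits, encoded by Grin2a to Grin2d, bind glutamate and set the kinetics of the channel, while GluN3 subunits (Grin3a and Grin3b) bind glycine and lower calcium entry. In much of the forebrain Grin2b and Grin2d dominate around birth and Grin2a rises after it, a change known as the developmental switch of subunits. NMDA, the agent that triggered the spasms here, is the agonist for which the receptor is named.

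The levels below rest on what 60 bases of each transcript hybridized. Of the probes with at least 1 reading frame free of stop codons, 3 are shown as the files give them, with G and C in capitals to show their composition. They are the Grin1 probe that crosses an intron, on which no change was called, the Grin2b probe, read close to background, and the Grin2d probe, the brightest. The Grin1 probe shown spans 134 bases of the genome and so crosses an intron (rn4 chr3:3460217-3460350, minus strand). Those of Grin2b (chr4:172722609-172722668, minus strand) and Grin2d (chr1:96309508-96309567, minus strand) lie in 1 piece.
Grin1: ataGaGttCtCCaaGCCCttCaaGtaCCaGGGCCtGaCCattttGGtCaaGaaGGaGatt
Grin2b: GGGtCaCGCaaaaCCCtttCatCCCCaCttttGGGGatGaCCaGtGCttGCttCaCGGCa
Grin2d: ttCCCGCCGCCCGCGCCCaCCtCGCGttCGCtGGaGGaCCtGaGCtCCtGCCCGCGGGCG
The Grin2d probe stood apart in composition, with 47 G and C of 60 bases (78.3%), at or above 99.9% of all probes, beside 46.7% for Grin1 and 55% for Grin2b. The other Grin1 probe lies downstream on the minus strand (chr3:3454949-3455008). Of the remaining probes, those placed here lie at chr10:105323397-105323456 (Grin2c), chr5:66406453-66406512 and chr5:66406544-66406603 (Grin3a) and chr7:11244019-11244078 (Grin3b), all read from the minus strand. The array build is rn4, for which no gene models were used here, so exon and UTR are not stated.

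How firmly a subunit was measured differed between probes. The spots of Grin2c, Grin2d and both Grin3a probes were well above background, by the flag of the scanner software, in all 20 samples. Their mean signal was 15.2 to 92.3 times the local background for Grin2c, 261 to 981 times for Grin2d, 9.42 to 52.7 times for the first Grin3a probe and 19.7 to 66.2 times for the second. No spot of a member was saturated. Grin2a passed the flag in 19 samples, Grin3b in 16 and Grin2b in 11, while the Grin1 probes passed it in 17 and 12. Grin2b, in particular, was well above background in 1 of 4 SNS samples, 2 of 4 BNS samples, all 4 BYS samples and 2 of 4 samples each of BYA and BYP. Values of Grin1, Grin2b and Grin3b therefore lie near the limit of detection. So do those of Grin2a in BNS replicates 1 and 2, at mean signals of 90.7 and 87.7 intensity units. Signals of different probes cannot be set against each other as amounts of mRNA.

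**Figure D1:**
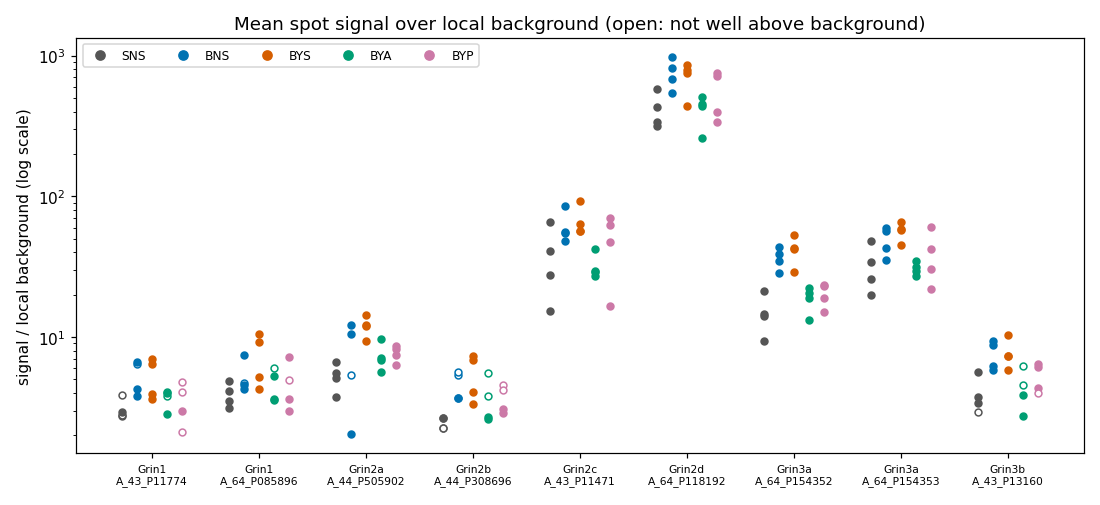
Mean spot signal divided by the local background (log scale) for the 9 NMDA receptor probes in the 20 samples, coloured by condition. Open points were not well above background. Grin2d lies between 261 and 981, while the Grin2b points lie between 2.25 and 7.34.

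The samples themselves gave unequal signals. Between 51.5% and 84.5% of the spots that are not controls were well above background, and the median signal over background of a sample ranged over 5.66 to 11.3 (SNS), 14 to 19.8 (BNS), 13.9 to 19.9 (BYS), 6.6 to 10.4 (BYA) and 7.02 to 10.9 (BYP). SNS and BNS did not overlap in this ratio. No slide held samples of more than 1 condition, and only BYA was spread over 2 slides, so slide and condition cannot be told apart. Replicates 1 and 2 of a condition share an array, as do replicates 3 and 4, except for BYA replicates 3 and 4, each of which shares its array with a male rat that was not used. For BYA replicate 3, the dye label and the order of names in its raw data disagree, and the label was followed. The tissue label held against its markers, since all 12 arcuate neuron genes on the list (such as Agrp, Npy, Pomc and Kiss1) passed the filter, while Slc17a7 and Tbr1, markers of cortical neurons, were well above background in 0 samples and 1 of 6 pituitary genes passed. None of the 5 sex-linked genes planned as a check was found by name on the array, so the labelled sex was not checked.

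Levels are given as log2 of the background-corrected intensity after quantile normalization, so that 1 unit is a doubling. Differences were tested with limma over all genes, with the dye as a covariate, and called at an adjusted p (Benjamini-Hochberg over all genes tested) under 0.05. Over all 5 conditions, 30.3% of the genes were called by limma's F test, and Grin2a was the 1 member among them (adjusted p = 0.0276). The other 6 had adjusted p from 0.0595 (Grin2c) to 0.955 (Grin3b). In bulk tissue, fewer cells of a type and less RNA per cell cannot be told apart.

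**Figure D2:**
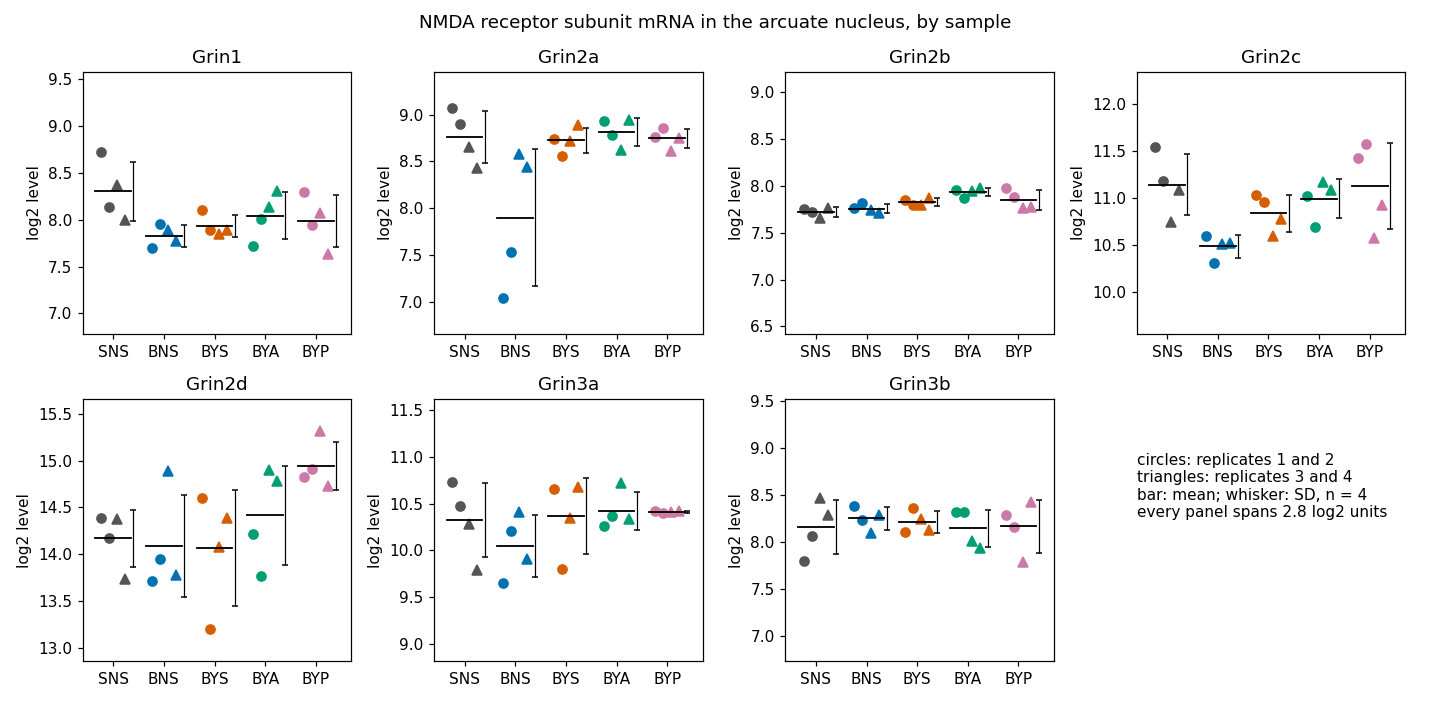
Log2 level of each subunit gene in the 20 samples, by condition. Points are samples, bars the mean and whiskers the SD of 4 samples, and every panel spans 2.8 log2 units. BNS replicates 1 and 2 lie at 7.05 and 7.54 for Grin2a, below all the other samples.

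In rats exposed to betamethasone before birth without spasms (BNS), 3 of the 7 subunits were lower than in SNS. These were Grin1, Grin2a and Grin2c, at 0.718, 0.551 and 0.634 times the SNS level. The other 4 subunits (Grin2b, Grin2d, Grin3a and Grin3b) were not called, with log2 differences from −0.28 to 0.1. In this comparison 28.6% of all genes were called, 13.4% as lower in BNS, so that 3 of 7 is to be read against a broad difference between these slides. The median log2 fold change was −0.28 over the 7 members and −0.04 over all genes.

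Grin2a encodes GluN2A, the subunit that rises as forebrain synapses mature. Its log2 level was 9.07, 8.9, 8.66 and 8.43 in SNS replicates 1 to 4, and 7.05, 7.54, 8.58 and 8.44 in the BNS replicates. The BNS values thus fell into 2 pairs, and the low pair, replicates 1 and 2, was hybridized to 1 array. The other pair overlapped with SNS. In the raw data, the mean signals of these 4 BNS spots were 90.7, 87.7, 338 and 387 intensity units, and the spot of replicate 1 was not well above background. The mean was 8.76 ± 0.28 (SD, n = 4) in SNS and 7.9 ± 0.734 in BNS, a log2 fold change of −0.86 (SE 0.243, adjusted p = 0.0139, limma). Without both samples of the low BNS array the log2 fold change was −0.25 (adjusted p = 0.296), and without BNS replicate 1 or 2 alone it was −0.56 (adjusted p = 0.0519) or −0.73 (adjusted p = 0.0518). The call thus needed that array.

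Grin1 was read by 2 probes that did not move together. On the downstream probe (A_64_P085896), SNS samples had log2 levels of 9.57, 8.35, 8.86 and 8.26 and BNS samples 7.54, 8.04, 7.86 and 7.74. All 4 BNS samples lay below all SNS samples on this probe. On the probe that crosses an intron (A_43_P11774), SNS samples had 7.88, 7.92, 7.88 and 7.74 and BNS samples 7.85, 7.86, 7.93 and 7.79. Here all 8 values lay between 7.74 and 7.93 and the groups overlapped, at signals of 2.76 to 6.6 times the local background. Fitted probe by probe, the log2 fold change was −0.96 (SE 0.197, adjusted p = 0.00162, limma) on the first and 0.0039 (95% interval −0.33 to 0.34) on the second. The difference between the 2 changes, −0.97, was tested after the values were seen and gave p = 0.0286, the smallest that 4 against 4 samples allow in a two-sided exact permutation test. After adjustment over the 10 pairs of conditions it was 0.0952. The 2 probes correlated with r = 0.24 over the 20 samples.

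**Figure D3:**
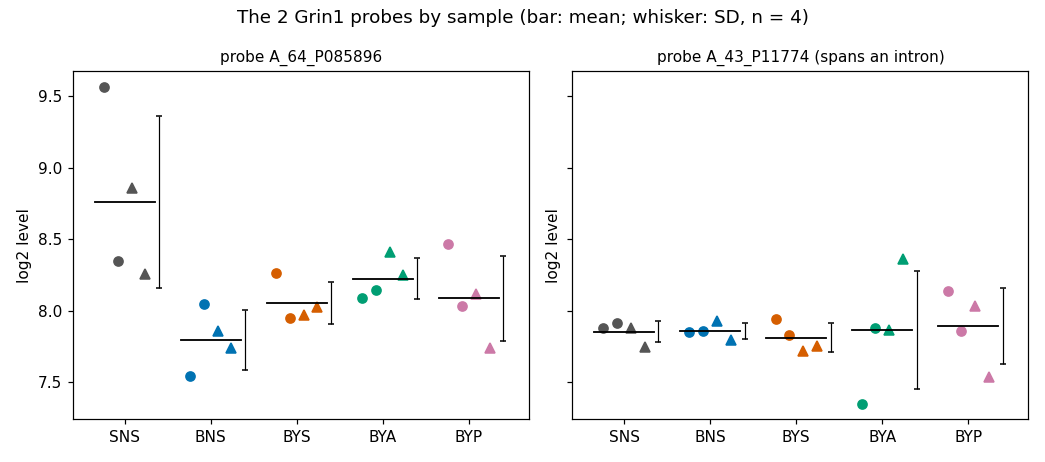
Log2 level of the 2 Grin1 probes by condition (points, samples; bars, mean; whiskers, SD of 4 samples). On the left probe the SNS samples lie between 8.26 and 9.57 and the BNS samples between 7.54 and 8.04, while on the right probe all 8 lie between 7.74 and 7.93.

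As the mean of both probes, Grin1 was 8.31 ± 0.316 (SD, n = 4) in SNS and 7.83 ± 0.117 in BNS, a log2 fold change of −0.48 (SE 0.153, adjusted p = 0.026, limma) with no overlap of samples. This call was lost without SNS replicate 1 (adjusted p = 0.0988), without BNS replicate 1 (0.0866) and without BNS replicate 4 (0.0523).

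Grin2c encodes GluN2C, a GluN2 subunit of cerebellar granule cells and of glia and neurons elsewhere. Its SNS levels were 11.54, 11.19, 10.75 and 11.09, and its BNS levels 10.6, 10.3, 10.51 and 10.52. After normalization, all 4 BNS samples lay below all SNS samples, on a probe well above background throughout. Before it, the mean spot signals of the groups overlapped. They were 1690, 1743, 1134 and 2771 intensity units in the SNS samples and 1960, 1696, 1355 and 2751 in the BNS samples. The part of the normalization in this separation was not tested. The log2 fold change was −0.66 (SE 0.196, adjusted p = 0.0185, limma). It was −0.52 without SNS replicate 1 (adjusted p = 0.0716) and −0.6 without BNS replicate 2 (0.0554). Unlike Grin2a, Grin2c was as low on the second BNS array as on the first, and without the first the log2 fold change was −0.63 (adjusted p = 0.104, 2 BNS samples).

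With the array as a random block, for which limma estimated a correlation of 0.365 between samples of 1 array, Grin2a kept its call between BNS and SNS (adjusted p = 0.0329), and Grin1 (0.104) and Grin2c (0.0544) lost theirs. When channels were scaled to the same median instead of quantile normalized, the median of all genes moved to −0.14, Grin2c was called (log2 fold change −0.95, adjusted p = 0.021) and Grin1 (−0.28, 0.524) and Grin2a (−1.08, 0.0664) were not. Fitted on SNS and BNS samples alone, Grin2a was not called (adjusted p = 0.0982), while Grin1 (0.0432) and Grin2c (0.0242) were. With the processed signals, Grin2a was called at a log2 fold change of −2.34 (adjusted p = 0.0279), while Grin1 (−0.77, 0.209) and Grin2c (−0.54, 0.106) were not. By the methods' own test Grin1 and Grin2c passed before adjustment and Grin2a did not, and after Benjamini-Hochberg none of the 3 did. As gene means, Grin1, Grin2a and Grin2c were lower in BNS under each alternative that measured them, but on its probe across the intron Grin1 was not.

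The signs of other cell types moved in part with this comparison. The summed level of the 2 choroid plexus markers that passed the filter was 3304 to 6878 in SNS and 1732 to 2846 in BNS, and that of 6 microglial markers 12023 to 12877 in SNS and 8836 to 11597 in BNS. For 4 endothelial markers it was 7147 to 8909 in SNS and 5704 to 6948 in BNS. For 2 thalamic markers, of which 1 was called lower in BNS, it was 1528 to 1757 in SNS and 1229 to 1519 in BNS. None of these ranges overlapped, while the sums of 6 neuronal markers (74486 to 97242 against 71053 to 88254) and 7 astrocyte markers (21529 to 25396 against 22191 to 25081) did. The sums also overlapped for arcuate neurons, glutamatergic and GABAergic neurons, oligodendrocytes and their precursors. The same held for ependyma and tanycytes, the ventromedial hypothalamus, cortex and hippocampus, and the pituitary. Of the lists with sums given, 1 of 6 microglial, 1 of 7 astrocyte and 1 of 7 neuronal genes were called lower in BNS, and 1 astrocyte and 1 neuronal gene higher. None of the 2 choroid plexus genes or the 4 endothelial genes was called, in a comparison that called 28.6% of all genes. Their part in the differences of the subunits, and that of the unequal signal over background, was not tested.

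The remaining subunits did not separate BNS from SNS. Grin2b, the subunit that dominates young forebrain synapses, stayed within 7.65 to 7.76 in SNS and 7.71 to 7.81 in BNS, a log2 fold change of 0.04 (95% interval −0.12 to 0.19). Grin2d, which forms slow channels in the diencephalon and brainstem, read 13.74 to 14.39 in SNS and 13.72 to 14.89 in BNS (−0.09, 95% interval −0.66 to 0.49). Grin3a read 9.79 to 10.73 and 9.65 to 10.41 (−0.28, −0.7 to 0.14), and Grin3b 7.8 to 8.47 and 8.1 to 8.39 (0.1, −0.22 to 0.41).

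NMDA, with or without treatment, was followed by no called change of any subunit against BNS. Over all genes, 0.0293% were called between BYS and BNS, 0.117% between BYA and BNS, 1.5% between BYP and BNS, and 0.339% between the mean of the 3 NMDA conditions and BNS, so that a call was rare for any gene. Of the 7 members, 6 had a higher mean in the NMDA conditions together than in BNS, and 5 in BYS alone. For the mean of the 3 conditions against BNS the median log2 fold change was 0.35 over the members and −0.0033 over all genes. These comparisons share the BNS samples, including the low array, with each other and with the comparison of BNS and SNS.

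**Figure D4:**
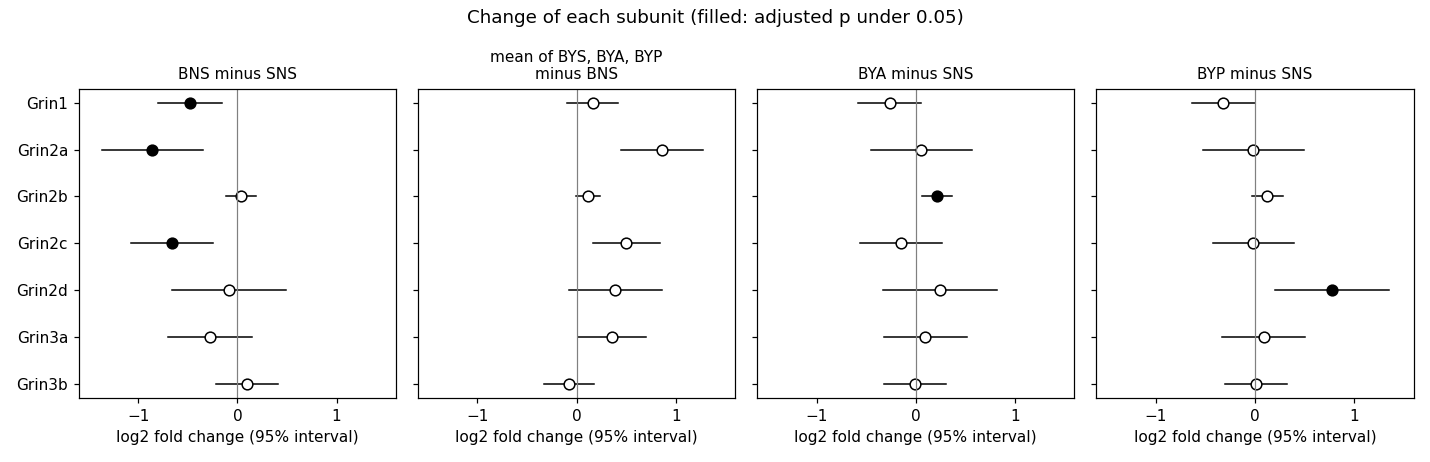
Log2 fold change of each subunit with its 95% interval in 4 comparisons, from the fit over all genes. Filled points had an adjusted p under 0.05. In the comparison with BNS no point is filled, and Grin2a lies at 0.86.

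Grin2a lay at 8.74, 8.56, 8.72 and 8.89 in BYS, at 8.93, 8.78, 8.62 and 8.94 in BYA, and at 8.77, 8.86, 8.61 and 8.75 in BYP. All 12 lay between 8.56 and 8.94, inside the SNS range. The BYA and BYP samples were all above the 4 BNS samples, while BYS overlapped with the second BNS array. Against BNS the log2 fold change was 0.83 in BYS (adjusted p = 0.489, limma), 0.92 in BYA (0.14) and 0.84 in BYP (0.0821), with an SE of 0.243 each. For the mean of the 3 conditions it was 0.86 (SE 0.198, adjusted p = 0.0796), a level 1.82 times that of BNS. Without the low BNS array it was 0.25 (adjusted p = 0.693). It passed the threshold when BNS replicate 3 (adjusted p = 0.0422) or 4 (0.0479) was left out.

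Grin2c stood at 10.84 ± 0.197 (SD, n = 4) in BYS, 10.99 ± 0.208 in BYA and 11.13 ± 0.462 in BYP against 10.48 ± 0.125 in BNS, and none of these differences was called. Its BYA samples (11.02, 10.69, 11.17 and 11.08) all lay above BNS, while BYP held both the highest value (11.58) and one (10.58) inside the BNS range. The log2 fold change for the mean of the 3 conditions was 0.5 (SE 0.16, adjusted p = 0.168, limma).

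Grin1 differed from BNS by 0.11 in BYS, 0.22 in BYA and 0.16 in BYP on the log2 scale, with adjusted p of 0.977, 0.56 and 0.627. On neither of its probes was a change against BNS called. Grin3b differed by −0.04, −0.11 and −0.09 (adjusted p from 0.793 to 0.999), and Grin3a, whose product lowers the calcium entry of receptors it joins, by 0.32, 0.37 and 0.37 (adjusted p from 0.351 to 0.847). Averaged over its probes, the 4 BYP samples of Grin3a lay within 10.39 to 10.42, the tightest of the 35 sets of 4 samples. Its BYS samples reached from 9.8 to 10.68. On the single Grin3a probes the BYP samples spread more widely, from 9.93 to 10.12 and from 10.67 to 10.91.

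Grin2b varied least of the 7 over the 20 samples, between 7.65 and 7.98. Its levels were 7.85, 7.8, 7.79 and 7.87 in BYS, 7.95, 7.88, 7.95 and 7.98 in BYA and 7.98, 7.88, 7.76 and 7.77 in BYP. All 4 BYA samples lay above all SNS, BNS and BYS samples. Against BNS the log2 fold change in BYA was 0.18 (SE 0.0724, adjusted p = 0.298, limma), and against SNS it was 0.22 (adjusted p = 0.0301), called in a comparison that called 31.3% of all genes. The SD of a condition was 0.0379 to 0.103, on a probe that missed the flag in 9 of 20 samples, and the part of the offset and scaling in this small spread was not tested. With the processed signals of the scanner software the log2 fold change of BYA against SNS was 1.06 (adjusted p = 0.0676). The call was also lost without SNS replicate 2 or 3 or BYA replicate 1 or 4 (adjusted p from 0.0562 to 0.079). Without BYA replicate 3, whose channel is in doubt, it was 0.21 (adjusted p = 0.0498).

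Grin2d had its highest mean in BYP. Its BYP levels were 14.82, 14.91, 15.31 and 14.73, all above the SNS samples (14.39, 14.17, 14.38 and 13.74) and the BYS samples (14.6, 13.2, 14.08 and 14.39). They overlapped with BNS (13.72, 13.95, 14.89 and 13.78) and BYA (14.21, 13.76, 14.89 and 14.78) through 1 BNS and 2 BYA samples. Against SNS the log2 fold change was 0.78 (SE 0.274, adjusted p = 0.0415, limma), a level 1.71 times as high, in a comparison that called 28.9% of all genes. Against BNS it was 0.86 (adjusted p = 0.111) and against BYS 0.88 (adjusted p = 0.382). The call against SNS was lost when any of the 4 SNS samples or BYP replicate 2, 3 or 4 was left out (adjusted p from 0.051 to 0.0986). With channels scaled to the same median it was 0.21 (adjusted p = 0.566), and with the processed signals 0.17 (adjusted p = 0.755). This is the member with the brightest spots and the most G and C in its probe.

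Against SNS, the level of the unexposed rats, few members differed in the NMDA conditions. No subunit was called in BYS, where 27.1% of all genes were, while Grin2b in BYA and Grin2d in BYP were the only ones in theirs. Grin2a, lower in BNS, stood against SNS at a log2 fold change of −0.04 for BYS (95% interval −0.55 to 0.47), of 0.06 for BYA (−0.45 to 0.57) and of −0.02 for BYP (−0.53 to 0.49). Grin2c stood at −0.3 (−0.71 to 0.11), −0.15 (−0.56 to 0.26) and −0.01 (−0.43 to 0.4). The downstream Grin1 probe stayed lower than in SNS in all 3, by log2 fold changes of −0.7 in BYS (adjusted p = 0.0137), −0.53 in BYA (0.046) and −0.67 in BYP (0.0167) when each probe was fitted on its own, and the probe across the intron stayed within −0.04 to 0.04.

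Among the NMDA conditions, none of the 7 subunits was called between BYA and BYS, where 0% of all genes were called, between BYP and BYS (0.0351%) or between BYP and BYA (0.158%). At an unadjusted p under 0.05 (limma) there were 0, 1 and 0 members, the 1 being Grin2d, beside 8.07%, 8.49% and 13.6% of all genes. For Grin2a the 95% intervals were −0.42 to 0.6 between BYA and BYS and −0.49 to 0.53 between BYP and BYS.

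The balance of Grin2a to Grin2b was taken as the difference of their normalized log2 levels within a sample, a log2 ratio that depends on the normalization. Since the probes bind unequally, its zero has no meaning and only differences between samples count. In SNS the ratio was 1.31, 1.18, 1.01 and 0.667 for replicates 1 to 4, and in BNS −0.719, −0.277, 0.834 and 0.736. The NMDA conditions gave 0.892, 0.757, 0.927 and 1.02 (BYS), 0.981, 0.903, 0.676 and 0.962 (BYA), and 0.786, 0.975, 0.847 and 0.978 (BYP). BNS replicates 1 and 2 were again apart, the only samples below 0.667.

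From highest to lowest, the mean ratio was 1.04 ± 0.279 (SD, n = 4) for SNS, 0.898 ± 0.108 for BYS, 0.897 ± 0.0954 for BYP, 0.88 ± 0.14 for BYA and 0.143 ± 0.763 for BNS. Neighbours in this order overlapped. The order among the first 4 changed with the processing, as with channels scaled to the same median BYS lay 0.20 above SNS and BYP differed from BYS by −0.71, and with the processed signals the NMDA conditions differed from SNS by −1.05 to −1.23. BNS had the lowest mean in each of these settings, and no pair was called in them. None of the 10 pairs of conditions differed after adjustment, with p from 0.0571 to 0.0857 for the 4 pairs with BNS and adjusted p of 0.214 each (exact permutation test, two-sided). The mean of the 3 NMDA conditions exceeded BNS by 0.75, a ratio 1.68 times as high, with p = 0.00549 over all 1820 relabellings of the 16 samples in the exact permutation test, and 0.0604 when adjusted together with the 10 pairs. The difference was 1.17 with channels scaled to the same median, 1.87 with the processed signals and 1.01 without background correction (exact permutation p of 0.0011, 0.0379 and 0.0104, unadjusted). These tests take samples of 1 array as independent. Without both samples of the low BNS array the difference was 0.11 (exact permutation p = 0.22). The Grin2b probe was well above background in only 11 of the 20 samples. Over the 20 samples Grin2b lay between 7.65 and 7.98 and Grin2a between 7.05 and 9.07. After quantile normalization the ratio thus mostly followed Grin2a.

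**Figure D5:**
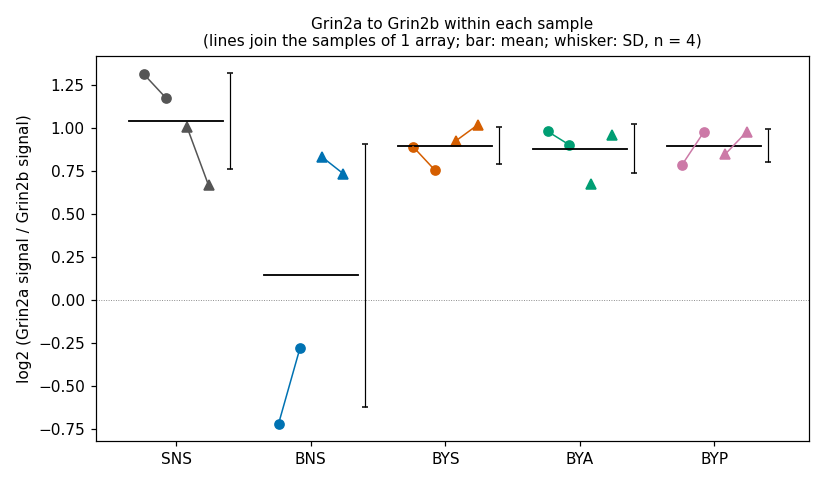
Log2 ratio of the Grin2a to the Grin2b signal within each sample, by condition, with lines joining samples of 1 array, bars for the mean and whiskers for the SD of 4 samples. The samples of 1 BNS array lie at −0.719 and −0.277, and all the others between 0.667 and 1.31.

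The genes most like a subunit over the 20 samples, after removal of the dye effect, were looked up among 16292 genes without missing values. For Grin2a these were Prepl (r = 0.95), Armc5 (r = 0.95) and Srprb (r = 0.94). Each of the 3 had the same low array, which their choice by correlation with Grin2a over these same samples favours. Prepl stood at 6.89 and 8.07 in BNS replicates 1 and 2 and at 10.35 or above in each other sample. Armc5 stood at 11.35 and 11.33 there and Srprb at 7.9 and 8. Both samples of that array lay below all 18 others in 259 of 16299 genes. On the other 8 arrays with 2 samples of a condition this count ranged from 71 to 1561, and the 2 SNS arrays had the most. Among the genes most like Grin1 were Slc25a10 (r = 0.86) and Hs6st1 (r = 0.85), and the most like Grin2b were Nr4a2 (r = 0.83), Nrxn2 (r = 0.83) and a probe without a gene symbol, A_64_P027328 (r = 0.82). These correlations describe samples that share arrays and slides. Among the members themselves, Grin2d and Grin3a (r = 0.66) and Grin2a and Grin3a (r = 0.66) were the most alike, and Grin3b ran against each of the others (r from −0.55 to −0.15).

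The genes around the receptor were read from 4 lists, all chosen, as the members were, with earlier results of these data known. In none of the lists was a gene called between the mean of the NMDA conditions and BNS, out of 20 postsynaptic scaffold genes, 24 genes of NMDA receptor signalling, 15 genes of glycine and D-serine supply and 13 genes that control the switch from Grin2b to Grin2a. The median log2 fold changes were 0.07, 0.15, 0.04 and 0.07, beside −0.0033 over all genes. All calls of these lists that follow were between BNS and SNS, where 28.6% of all genes were called.

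Of the scaffold genes, 2 of 20 (10%) were called, both lower in BNS. These were Dlg2, encoding PSD-93, which anchors the receptor at the membrane (log2 fold change −0.51, adjusted p = 0.00515, limma), and Homer1, which links it to metabotropic glutamate receptors (−0.29, 0.0333). The Homer1 call was lost with channels scaled to the same median (0.0628), with the processed signals (0.364), with the array block (0.114) and without the low BNS array (0.127). Dlg2 was not called with the processed signals (−0.36, 0.123).

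Of the signalling genes, 8 of 24 (33.3%) were called, 4 higher and 4 lower. Calm3, 1 of the calmodulin genes, whose product binds GluN1 and inactivates the channel, lay at 13.38 to 14.24 in SNS and rose to 14.68 to 14.98 in BNS (log2 fold change 1.17, adjusted p = 8.137e-06, limma), with no overlap. With channels scaled to the same median it was 0.65 (adjusted p = 0.117). Ppp3cb, a catalytic subunit of calcineurin, was higher by 1 (adjusted p = 0.0374), and by 0.55 without the low BNS array (0.347). Its call was also lost with channels scaled to the same median (0.338), with the processed signals (0.282) and with the array block (0.102).

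Of the genes of glycine and D-serine supply, the coagonists of the receptor, 3 of 15 (20%) were called. Slc7a10, the transporter that carries D-serine and glycine, was higher in BNS (log2 fold change 0.95, adjusted p = 2.222e-05, limma), at 12.42 to 12.74 against 11.27 to 11.87 in SNS. Its adjusted p was 0.145 with channels scaled to the same median. Srr, which makes D-serine, was lower (−0.4, 0.00616), though by −0.06 (0.752) with the processed signals. Ddo, an oxidase of acidic D-amino acids, was lower by −0.31 (0.028), or −0.19 (0.284) without the low BNS array. The Ddo call was also lost with channels scaled to the same median (0.403), with the processed signals (0.157) and with the array block (0.0974).

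Of the genes that control the switch, 3 of 13 (23.1%) were called. Creb1, a transcription factor activated by synaptic calcium, was lower in BNS (log2 fold change −0.59, adjusted p = 0.00739, limma), as was Lrp8, a receptor for reelin (−0.51, 0.00152), while the DNA methyltransferase Dnmt3b was higher (0.48, 7.000e-04). None of the 3 was called with channels scaled to the same median (adjusted p of 0.107, 0.404 and 0.0562), though each kept its direction. With the processed signals Creb1 (0.0501) and Lrp8 (0.0651) were not called, nor was Creb1 without the low BNS array (0.0674). The shares of these lists lay on both sides of the 28.6% of all genes.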

How the data were processed

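RNA from the arcuate nuclei of 20 female rats was hybridized to 11 two-colour arrays on 6 slides, with each channel taken as a sample. The authors deposited the output of the scanner software for each array, whose mean spot signals, local backgrounds and processed signals are intensities per the file headers, and whose flags per spot are other values of 0 or 1. The submitters' processing notes name Agilent Feature Extraction 10.7.3.1, and the file headers 11.5.1.1. In 2 arrays 82 columns belong to samples of another series and were not used.

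Signals were background-corrected in each channel with normexp (offset 50), and log2 values were quantile normalized over the 42877 spots that are not controls. Outlier spots (1.18%) were left out. Probes entered the tests when a share of 0.5 or more of their spots passed the software's flag in each of the 4 rats of any condition, and probes of a gene were averaged. Probes were named by RefSeq symbols where the accession matched (18643 of 30367, 61.4%) and otherwise by the name in the files. The number of arrays limits the precision. Tests used limma 3.58.1 (R 4.3.3) with condition and dye, after a test on simulated data, and exact permutation tests for the ratio of Grin2a to Grin2b. Genes named are the members, up to 3 called genes of each list in BNS minus SNS and in the pooled comparison, and the 3 genes most correlated with Grin1, Grin2a and Grin2b, of which 2 genes are not reported here, nor is the sequence of 1 probe. The members, lists and tests were chosen with earlier results of these data known. The p-values rest on the spread between samples within conditions, which mixes rat, array and channel. Except with the array or slide as a block, samples of 1 array were taken as independent. Differences between slides are not covered, since no slide held samples of more than 1 condition.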

Additional observations from a re-analysis of the deposited data

How the results depend on the processing

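No alternative turned the direction of a called gene mean, while 1 of the Grin1 probes, fitted alone, gave 0.0039 between BNS and SNS. Counts here are members called, beside 1 in the F test, 3 between BNS and SNS, 1 each for BYA and BYP against SNS and 0 elsewhere, and are given where they moved. Calls over all genes follow in the same order of comparisons, out of 17086 unless stated. They are not given for the F test, the fit of only the conditions compared, fits without a sample or fits of each probe. With channels scaled to the same median they were 0 (F), 1 (BNS and SNS), 1 (BYP and BYS), 0 (BYA and SNS) and 0 (BYP and SNS), and with the processed signals 0 (F), 1 (BNS and SNS) and 0 (BYA and SNS). Over all genes 2656, 2820, 1401 and 4900 were called with that scaling, and 2342 and 1943 with the processed signals. Without background correction they were 1 (BYS and SNS) and 0 (BYA and SNS), and without the filter 0 (BYP and SNS). Calls over all genes were then 4734 and 5401, and 5800 of 25926. With only probes well above background in all samples, 3 members could be tested, with counts of 0 (F), 1 (BNS and SNS) and 0 (BYA and SNS). Of the 11063 genes tested there, 3214 and 3597 were called. The brightest probe of each gene gave 2 (F), 1 (BYS and SNS), 2 (BYA and SNS) and 2 (BYP and SNS), beside 4760, 5481 and 5048 over all genes. Loess gave 2 (F) and 0 (BYA and SNS), no dye term 0 (BYP and SNS), and a fit of only the conditions compared 2 (BNS and SNS, without Grin2a) and 0 (BYA and SNS). Over all genes loess called 4623 and the fit without the dye term 4729. The array as a random block gave 0 (F), 1 (BNS and SNS), 0 (BYA and SNS) and 0 (BYP and SNS), beside 2595, 3310 and 2648 over all genes. The slide as one (estimated correlation −0.13) gave 5 (F), 1 (BYS and BNS), 1 (BYA and BNS), 3 (BYP and BNS), 1 (BYP and BYS), 1 (BYS and SNS), 2 (BYP and SNS) and 2 (the mean of the NMDA conditions and BNS). Over all genes it called 174, 858, 2652, 422, 7860, 8135 and 1584. Calls thus rose over all genes, from 5 to 174 between BYS and BNS and from 257 to 2652 between BYP and BNS. Only BYA lay on 2 slides, so this block cannot separate slide from condition. The methods' t-test gave 0 (BNS and SNS) after Benjamini-Hochberg, beside 3206 over all genes. At its own threshold, and by the methods' combined criterion, it gave 2 (BNS and SNS, without Grin2a), 1 (BYS and BNS), 2 (BYA and BNS), 1 (BYP and BNS), 1 (BYA and BYS), 1 (BYP and BYS) and 1 (BYS and SNS). Over all genes the combined criterion called 6392, 1373, 1887, 2809, 996, 1098 and 5661. The cause of these moves was not tested.

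Leaving out 1 sample gave 0 to 2 (F), 1 to 3 (BNS and SNS) and 0 to 1 for BYS, BYA and BYP against SNS, for BYP against BNS and for the mean of the NMDA conditions against BNS. The replicate block gave 2 (F) and changed no other count. Replicate numbers do not pair these samples, as deviations of the same number correlated by 0.0031 on average (−0.24 to 0.28). For the ratio of Grin2a to Grin2b, the block gave exact permutation p = 0.00781 for the NMDA conditions against BNS.

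Chosen after seeing the data, a fit of each probe gave 1 (BYS and SNS), 2 (BYA and SNS) and 2 (BYP and SNS). Leaving out both samples of the first BNS array gave 0 (F) and 0 (BNS and SNS), with 2 BNS samples left, and moved the ratio's difference between the NMDA conditions and BNS to 0.107.

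Signals near background limit Grin1, Grin2b and Grin3b, and Grin2a on the low BNS array. The 4 samples a condition on separate slides limit every comparison.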
